A study of Mus musculus with 2 samples.

Results

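B lineage cells were the 133 cells that the authors' deposited annotation names Bcell, of 14097 annotated cells (0.943%). The cells came from adenomas of the distal mouse colon, which were dissociated and captured in droplets with the 10x Genomics assay. They comprised 40 of the 6189 cells of a library in which every cell was classed CIN_high and 93 of the 7908 cells of a library in which every cell was classed CIN_low. CIN stands for chromosomal instability, and the class file gave 1 class to each library. The sample labels name 1 library of G4+T and 1 of G0+T, both from Apcmin;LSL-mTERT mice aged 25 weeks. Apcmin is an inherited truncating allele of Apc that gives rise to intestinal adenomas, and LSL-mTERT is a mouse Tert allele that stays silent until Cre removes a stop cassette. The sources used here do not give the number of animals behind a library or the driver of Cre. The cell names carry a G0 prefix in both libraries, which conflicts with the sample labels, so no cell was assigned to G4+T or G0+T and the libraries are called by their CIN class.

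With 1 library per class there is no replicate, and no difference between the libraries was tested. Cells of 1 library share their tissue and handling and are not replicates. Intervals are exact 95% intervals and cover counting error only. Levels are means over cells of the unique molecular identifiers (UMIs) of a gene per 10000 UMIs of the cell. A gene is said to stand higher or lower when these means differ at least 2-fold.

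B cells carry a membrane immunoglobulin that signals through the Cd79a and Cd79b chains, and they present antigen on MHC class II molecules. When a B cell becomes a plasma cell, the factor Prdm1 shuts down much of that programme, Xbp1 enlarges the endoplasmic reticulum, and the cell secretes its immunoglobulin. In the gut wall most plasma cells secrete dimeric IgA, which the joining chain Jchain links so that the epithelium can carry it into the lumen.

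The promoters of the genes that separate the cells annotated Bcell are shown because the classes below, and the check of their label, rest on these genes. Cd79a, the signalling chain of the B cell receptor, lies at chr7:24897381-24902197 on the plus strand of mm10. Jchain lies at chr5:88519809-88527891 on the minus strand, and Siglech, a sialic acid binding receptor, lies at chr7:55768178-55778925 on the plus strand. Ms4a1, which encodes the surface protein CD20, lies at chr19:11249675-11266241 on the minus strand. Each sequence is 300 bases of RefSeq on GRCm38.p6, from 250 bases before the start site to 50 after it, written along the gene. They cover chr7:24897247-24897546, chr5:88527848-88528147 and chr7:55767934-55768233. Capitals mark matches, on either strand, to the E-box CACCTG, the octamer ATGCAAAT or the ETS motif AGGAAGT.
Cd79a: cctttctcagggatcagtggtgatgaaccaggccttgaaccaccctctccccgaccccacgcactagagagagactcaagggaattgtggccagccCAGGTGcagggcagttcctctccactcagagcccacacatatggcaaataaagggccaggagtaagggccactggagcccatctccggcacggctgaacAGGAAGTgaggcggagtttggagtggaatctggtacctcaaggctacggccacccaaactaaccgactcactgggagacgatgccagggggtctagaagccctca
Jchain: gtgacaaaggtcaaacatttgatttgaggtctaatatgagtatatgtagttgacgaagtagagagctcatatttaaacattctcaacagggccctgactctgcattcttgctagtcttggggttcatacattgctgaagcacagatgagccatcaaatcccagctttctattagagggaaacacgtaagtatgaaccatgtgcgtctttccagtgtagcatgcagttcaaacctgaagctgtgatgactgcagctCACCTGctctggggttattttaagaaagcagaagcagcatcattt
Siglech: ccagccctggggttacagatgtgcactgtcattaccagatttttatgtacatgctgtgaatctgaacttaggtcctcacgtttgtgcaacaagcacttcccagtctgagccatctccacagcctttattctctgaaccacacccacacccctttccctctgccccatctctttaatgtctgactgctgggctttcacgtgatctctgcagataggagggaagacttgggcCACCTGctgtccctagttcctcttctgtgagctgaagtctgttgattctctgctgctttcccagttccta
The Cd79a promoter held 1 E-box match on the opposite strand, starting 154 bases before the start site, and 1 ETS match 55 bases before it. The Jchain promoter held 1 E-box match just past the start site, and the Siglech promoter held 1 E-box match 20 bases before it. No octamer match was found in these windows. Of 32851 promoters of this length, 20.2% held CACCTG, 9.35% held AGGAAGT and 1.74% held ATGCAAAT. The motifs do not overlap one another in these letters, and a match is no evidence of a bound factor.

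The cells annotated Bcell were split into 3 groups by the marker genes. A cell with at least 10 Jchain UMIs per 10000 was called Jchain-high, and 48 cells qualified. A cell with a Siglech UMI and no such Jchain level was called Siglech-positive, and 54 cells qualified. A remaining cell with a Ms4a1 UMI was called Ms4a1-positive, and 26 cells qualified, while 5 cells met none of the rules. The Jchain rule cuts a range, but few cells lay near it: the highest level under it was 8.23 UMIs per 10000, the lowest past it was 25.9, and 3 cells lay between 5 and 20. The median past it was 317 UMIs per 10000 and the highest 1006, and 79 cells had no Jchain UMI. No cell had both Ms4a1 and Siglech, no Jchain-high cell had Siglech, and 8 Jchain-high cells had a Ms4a1 UMI. The Ms4a1-positive class rests on 1 UMI in 8 of its 26 cells, and Siglech-positive cells had 1 to 31 Siglech UMIs, of which 1 cell had fewer than 3. Of the 5 cells with none of the 3, 3 had Cd79a, at 5 to 7 UMIs.

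**Figure D1:**
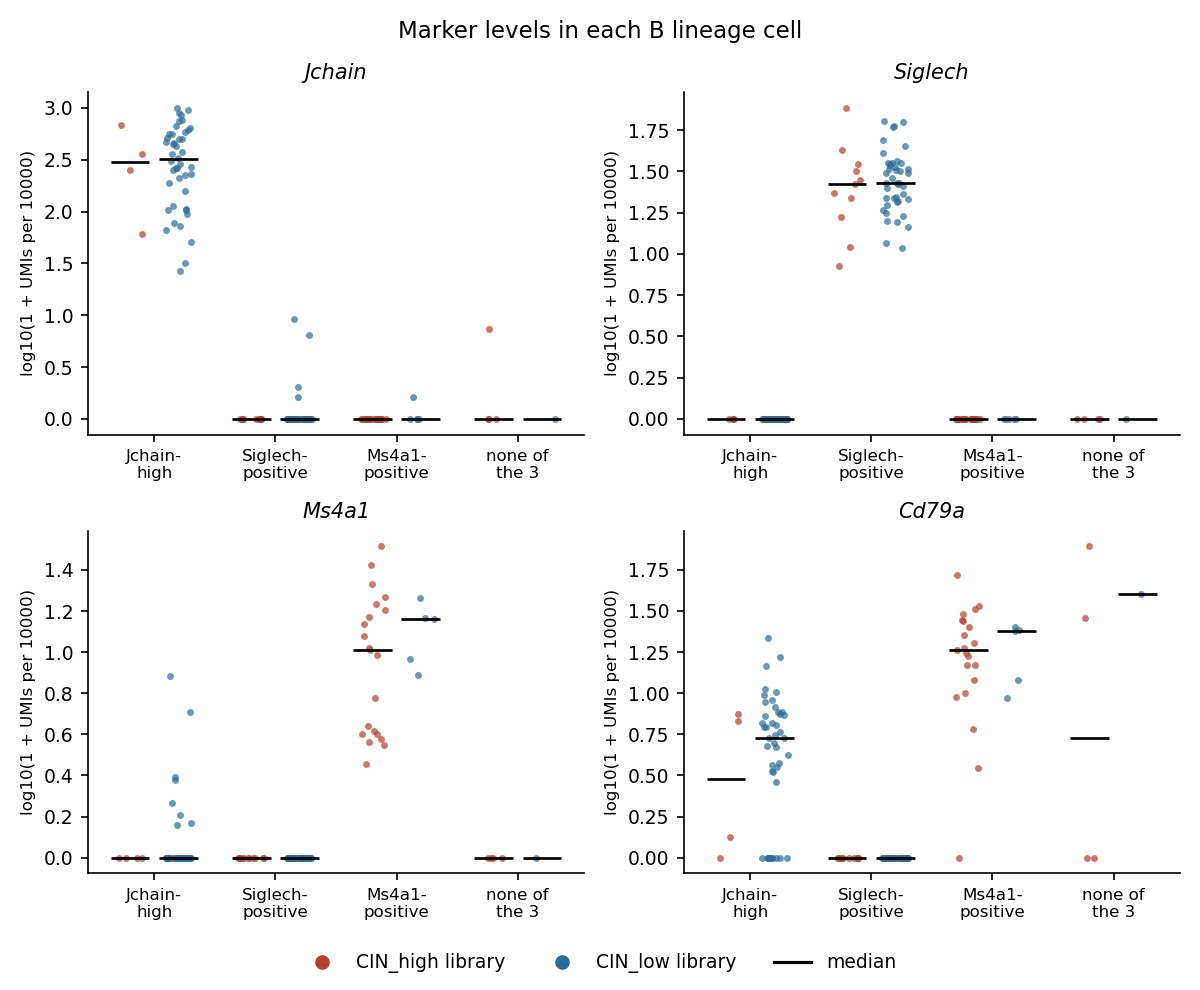
Levels of Jchain, Siglech, Ms4a1 and Cd79a in each of the 133 cells annotated Bcell, as log10(1 + UMIs per 10000), by class and library; points are cells and bars are medians. Jchain, Siglech and Ms4a1 chose the classes, and Cd79a, which did not, is found in 36 of 48 Jchain-high cells, 0 of 54 Siglech-positive cells and 25 of 26 Ms4a1-positive cells.

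The annotation as B cells fitted the Jchain-high and Ms4a1-positive cells and went against the Siglech-positive cells. Cd79a averaged 4.58 UMIs per 10000 in Jchain-high cells (0 to 20.6, median 4.31), 0 in all Siglech-positive cells and 18.6 in Ms4a1-positive cells (0 to 51.2, median 17.6). A Cd79a UMI was found in 36 of 48 Jchain-high cells, 0 of 54 Siglech-positive cells and 25 of 26 Ms4a1-positive cells, against 1 of 648 T and NK cells and 20 of 8278 myeloid cells. Median depth was 12405.5 UMIs in Jchain-high, 5468 in Siglech-positive and 3482.5 in Ms4a1-positive cells, against 3560.5 in T and NK cells and 5980 in myeloid cells. With every cell thinned to 2000 UMIs, Cd79a was found in 2 of 4 Jchain-high cells of the CIN_high library and 16 of 40 of the CIN_low library. Among Siglech-positive cells it was found in 0 of 9 of the CIN_high library and 0 of 36 of the CIN_low library, and among Ms4a1-positive cells in 19 of 19 (CIN_high) and 4 of 4 (CIN_low). Pax5, the factor that holds B cell identity, had no UMI in Siglech-positive cells and averaged 1.53 UMIs per 10000 in Ms4a1-positive cells. The Siglech-positive cells carried genes listed as plasmacytoid dendritic markers, described below, and no other name is given to them here.

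A few cells of other annotated types met the same rules, most of them at far lower levels. Jchain reached 10 UMIs per 10000 in 21 cells outside the annotation, of which 17 were myeloid, at a median of 11.7, against 317 in the annotated cells. Most of these 21 cells had few Jchain UMIs, but 6 had at least 5 and the highest had 1413 in 1 cell, an amount seen in Jchain-high cells. The Siglech-positive rule was met by 38 other cells at a median Siglech level of 1.21, against 26 in the annotated cells. At least 5 Siglech UMIs were found in 3 of them, and at most 16. The Ms4a1-positive rule was met by 10 other cells at a median Ms4a1 level of 0.752, against 9.34 in the annotated cells, with at most 4 UMIs. Those cells were left in their deposited types.

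The make-up of the cells annotated Bcell, called B lineage cells here with the Siglech-positive cells included, differed between the libraries. B lineage cells were 0.646% of all cells with the class CIN_high (0.462% to 0.879%), against 1.18% of those with CIN_low (0.950% to 1.44%). The CIN_low share was 1.82 times the CIN_high share. These shares count the Siglech-positive cells, and without them they were 0.469% for CIN_high against 0.632% for CIN_low, 1.35 times as much. Jchain-high cells were 4 of 40 B lineage cells in the CIN_high library (10.0%, 2.79% to 23.7%) against 44 of 93 in the CIN_low library (47.3%, 36.9% to 57.9%). Ms4a1-positive cells were 21 of 40 in the CIN_high library (52.5%, 36.1% to 68.5%) against 5 of 93 in the CIN_low library (5.38%, 1.77% to 12.1%). The intervals did not overlap for either class. Siglech-positive cells were 11 of 40 (27.5%, 14.6% to 43.9%) in the CIN_high library and 43 of 93 (46.2%, 35.8% to 56.9%) in the CIN_low library, with overlapping intervals. Cells with none of the 3 were 4 in the CIN_high library and 1 in the other. With Siglech-positive cells left out of the denominator, Jchain-high cells were 13.8% in the CIN_high library against 88.0% in the CIN_low library, and Ms4a1-positive cells were 72.4% in the CIN_high library against 10.0% in the CIN_low library.

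As a share of all cells of the library, Jchain-high cells were 0.0646% in the CIN_high library against 0.556% in the CIN_low library, 8.61 times as much in the CIN_low library. Ms4a1-positive cells were 0.339% in the CIN_high library against 0.0632% in the CIN_low library, 5.37 times as much in the CIN_high library. Siglech-positive cells were 0.178% in the CIN_high library against 0.544% in the CIN_low library. Median depth of the B lineage cells was 3861 UMIs in the CIN_high library against 6203 in the CIN_low library. The classes differed in depth and in share, and their part in this difference was not tested. Within Ms4a1-positive cells the median depths were close, at 3348 UMIs in the CIN_high library and 3649 in the other. With each cell thinned to 2000 UMIs and shallower cells left out, the share of B lineage cells with a Ms4a1 UMI and no high Jchain was 43.8% in the CIN_high library against 3.75% in the CIN_low library. The sources used here do not say whether the pieces held lymphoid follicles, and the part of such tissue in these shares was not tested.

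**Figure D2:**
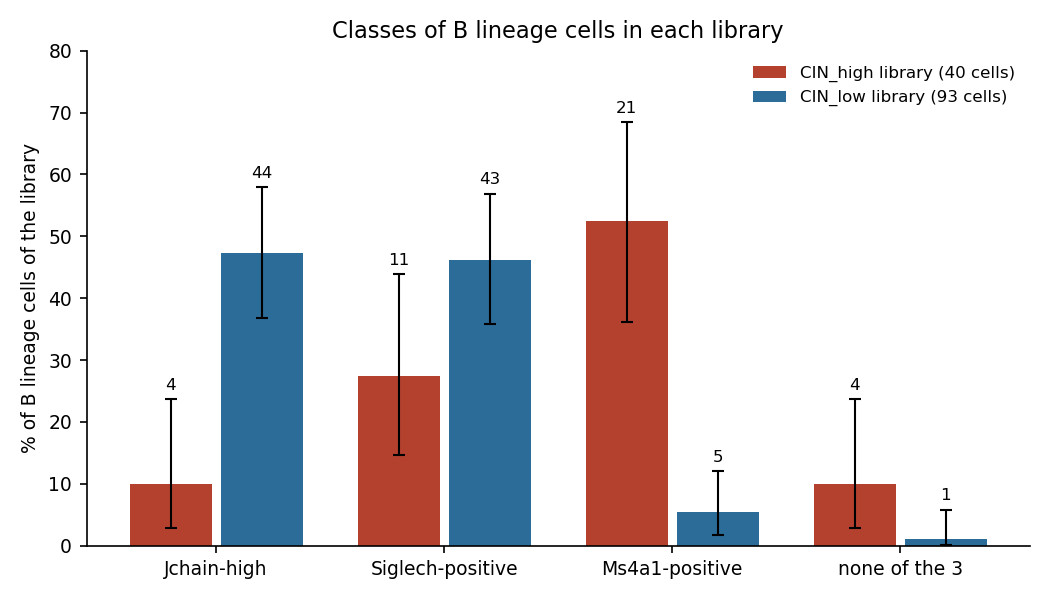
Share of the cells annotated Bcell (B lineage), Siglech-positive cells included, in each class. Bars are in percent with exact 95% intervals and the number of cells above them. The CIN_high library had 40 such cells and the CIN_low library 93. Ms4a1-positive cells are the largest class of the CIN_high library at 52.5%, and Jchain-high cells the largest of the CIN_low library at 47.3%.

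Scrublet, a doublet caller, marked 3 of the 40 B lineage cells of the CIN_high library and 0 of the 93 of the CIN_low library. The marked cells were 2 of the 4 Jchain-high cells and 1 cell with none of the 3. A further 6 B lineage cells carried over 50 UMIs of the myeloid genes S100a8, S100a9 and Lyz2 together and were not marked. The libraries shared 11 cell barcodes, of which 0 belonged to B lineage cells.

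Immunoglobulin RNA separated the classes. Genes of the immunoglobulin loci made up, at the median, 43.6% of all UMIs in a Jchain-high cell (8.30% to 73.0%), 0.173% in a Siglech-positive cell and 0.721% in a Ms4a1-positive cell (0.168% to 2.45%). Igha, the constant region of IgA at chr12:113254830-113260236, averaged 1016 UMIs per 10000 in Jchain-high cells, 0.883 in Siglech-positive cells and 0.343 in Ms4a1-positive cells. Igkc, the kappa light chain constant region, averaged 2962 in Jchain-high cells, 3.45 in Siglech-positive cells and 39.5 in Ms4a1-positive cells. Ighm, the constant region of IgM at chr12:113418558-113422730, went the other way, at 0.847 in Jchain-high cells, 6.97 in Siglech-positive cells and 27.9 in Ms4a1-positive cells. It averaged 33.4 in the 5 cells with none of the 3. T and NK cells held 0.575 UMIs per 10000 of Igha, 1.20 of Igkc and 0.464 of Ighm, so the Siglech-positive cells lay near these cells for Igha and above them for Ighm. The lambda constant region Iglc3, which shares reads with near-identical copies, averaged 1.31 in Jchain-high, 5.73 in Siglech-positive and 0.646 in Ms4a1-positive cells.

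A heavy chain was called for a cell from the constant region with the most UMIs, where it had at least 5. Of the 48 Jchain-high cells, 45 led with Igha, at 50 to 2842 UMIs and a median of 1081. The other Jchain-high cells led with an IgG constant region: 2 with Ighg2c, at 1051 and 1888 UMIs, and 1 with Ighg1, at 498. Ighg2b, a related constant region, had 0 and 44 UMIs in these 2 Ighg2c cells. The 4 Jchain-high cells of the CIN_high library all led with Igha, and the 44 of the CIN_low library included all 3 IgG cells. Within the cells led by Igha, Igha made up 96.5% to 100% of the heavy chain constant UMIs. All 48 Jchain-high cells had kappa as the leading light chain.

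Of the 26 Ms4a1-positive cells, 20 led with Ighm at 5 to 33 UMIs, 2 led with Ighg2b at 6 and 12, and 4 fell short of 5 UMIs. Ighd, the constant region of IgD found on mature naive B cells, averaged 4.89 UMIs per 10000 in them and had no UMI in Jchain-high cells. A Ighd UMI occurred in 15 of 21 Ms4a1-positive cells of the CIN_high library and 1 of 5 of the CIN_low library. Among Siglech-positive cells, 19 of 54 led with Ighm, at 5 to 15 UMIs and a median of 7.

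**Figure D3:**
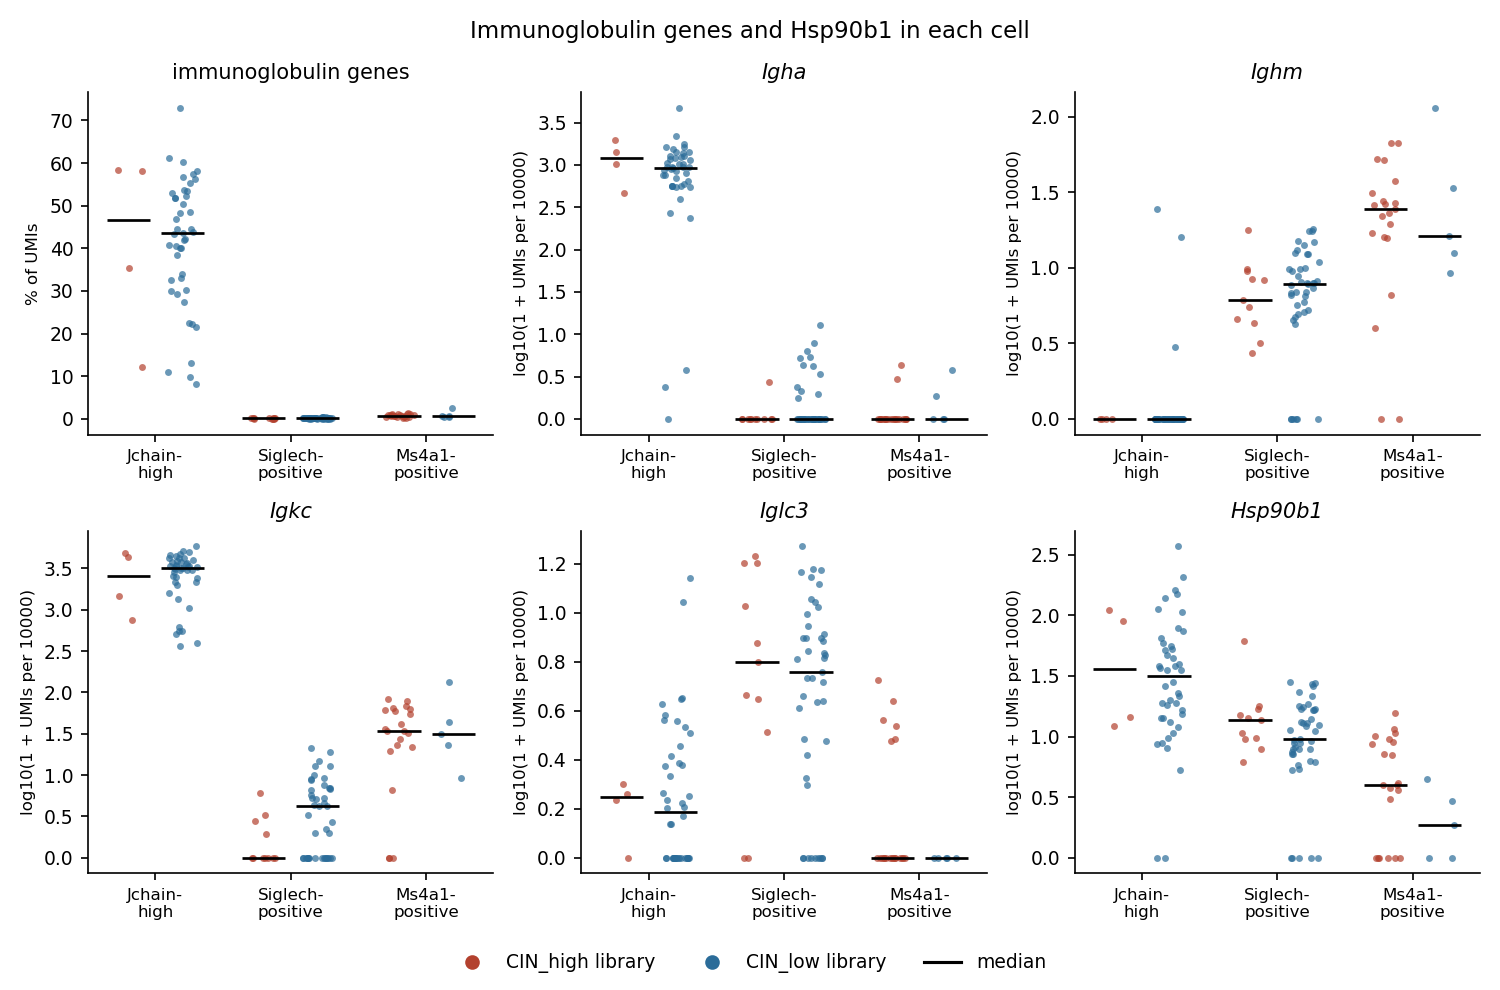
Share of UMIs from immunoglobulin genes in percent, and levels of Igha, Ighm, Igkc, Iglc3 and Hsp90b1 as log10(1 + UMIs per 10000), in each cell by class and library; points are cells and bars are medians. The Jchain-high cells lie at high Igha apart from the 3 cells that led with an IgG constant region, and among the 3 named classes the Ms4a1-positive cells lie highest for Ighm.

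Jchain-high cells carried the secretory programme of plasma cells. Of the 2918 genes with at least 20 UMIs and a UMI in at least 10% of the cells of a class, 394 stood at least 2-fold higher in Jchain-high than in Ms4a1-positive cells (13.5%) and 1232 stood lower (42.2%), with a median log2 ratio of -0.76. Immunoglobulin takes much of the Jchain-high total and so lowers every other level on this scale. With immunoglobulin genes left out of the totals, 736 genes stood higher and 667 lower, and the median was -0.02. The part of all genes at least 2-fold apart that stood higher was thus 24.2% with immunoglobulin in the totals and 52.5% without it. Ratios below are on the first scale.

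Endoplasmic reticulum folding and secretion genes stood higher in Jchain-high cells almost throughout. Of their 28 measured genes, 26 stood higher and 0 lower, with a median log2 ratio of 2.38. Hsp90b1, the chaperone Grp94, averaged 52.0 UMIs per 10000 in Jchain-high cells and 3.98 in Ms4a1-positive cells, a log2 ratio of 3.71. Hspa5, the chaperone BiP, averaged 26.4 in Jchain-high cells and 6.91 in Ms4a1-positive cells (log2 1.93). Ssr4, of the complex that binds the translocon, had a log2 ratio of 3.35, and Sec61a1, the translocation pore, 2.87. Herpud1, a factor of degradation at the endoplasmic reticulum, had 3.38, and Pdia6, a disulfide isomerase, 2.42. Creld2, a folding factor, averaged 4.94 in Jchain-high cells and 0.0867 in Ms4a1-positive cells, the second from 3 UMIs. Canx, the lectin chaperone calnexin, was the only measured gene of the list at or below equal level, with a log2 ratio of -0.11, which was 0.54 with immunoglobulin left out of the totals.

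Plasma cell identity genes stood higher too: of 18 measured, 13 stood higher, 1 stood lower and the median log2 ratio was 2.94. Of the 18, 4 had no UMI in Ms4a1-positive cells. Those 4 passed the filter through Jchain-high cells alone, so they could only come out above equal level, and their ratios use a floor of 3 UMIs. Xbp1, the factor that expands the secretory apparatus, averaged 10.3 UMIs per 10000 in Jchain-high cells (0 to 40.4) and 0.934 in Ms4a1-positive cells (0 to 8.04), a log2 ratio of 3.47. Prdm1, which encodes Blimp-1, averaged 1.3 in Jchain-high cells and 0.144 in Ms4a1-positive cells (log2 3.17). Mzb1, an endoplasmic reticulum cochaperone of immunoglobulin assembly, averaged 21.6 in Jchain-high cells and 3.96 in Ms4a1-positive cells (log2 2.45). Edem1, which targets misfolded glycoproteins for degradation, had a log2 ratio of 4.04. Sdc1, the surface proteoglycan CD138, averaged 1.56 in Jchain-high cells and had no UMI in Ms4a1-positive cells. Tnfrsf17, the receptor BCMA, averaged 0.384 in Jchain-high cells and Derl3, a factor of protein export from the endoplasmic reticulum, averaged 2.46, again with no UMI in Ms4a1-positive cells. Irf4 was the gene that stood lower, at 0.454 in Jchain-high cells and 2.26 in Ms4a1-positive cells (log2 -2.31), although it is known to act in plasma cells as well as activated B cells.

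Outside the lists, Slpi, a secreted protease inhibitor, was among the genes highest in Jchain-high cells, at 41.6 UMIs per 10000 (3114 UMIs) against 0.108 in Ms4a1-positive cells (3 UMIs). It was found in 37 of 48 Jchain-high cells. Txndc5, a disulfide isomerase, averaged 10.9 in Jchain-high cells and 0.337 in Ms4a1-positive cells (log2 5.02). Trp53inp1, a p53 target that was also listed with plasma cell identity, averaged 10.5 in Jchain-high cells and 0.809 in Ms4a1-positive cells (log2 3.70). Ccr10, the receptor that draws IgA plasma cells to the colon, averaged 0.867 in Jchain-high cells, was found in 24 of the 48 and had no UMI in Ms4a1-positive cells. Ckap4, a sheet protein of the endoplasmic reticulum, averaged 3.20 in Jchain-high cells and 0.0652 in Ms4a1-positive cells, the second from 2 UMIs.

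The B cell programme stood lower in Jchain-high cells of the pooled libraries. Most Jchain-high cells came from the CIN_low library and most Ms4a1-positive cells from the CIN_high library. The pooled ratios here and above thus mix class with library, and values within each library are given below. Of 8 measured MHC class II genes all 8 stood lower, with a median log2 ratio of -4.70. H2-Aa averaged 1.23 UMIs per 10000 in Jchain-high cells (0 to 25.4, median 0) and 43.9 in Ms4a1-positive cells (8.99 to 82.2, median 38.1), a log2 ratio of -5.16. H2-Eb1 had a log2 ratio of -4.25 and Cd74, the invariant chain, -2.18. H2-DMb2, which helps to load peptide, averaged 5.20 in Ms4a1-positive cells and had no UMI in Jchain-high cells. A H2-Aa UMI was found in 17 of 48 Jchain-high cells and all 26 Ms4a1-positive cells.

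Of 15 measured genes of the B cell receptor complex and its signalling, 12 stood lower and 0 higher in Jchain-high cells (median log2 -2.02). Cd79a had a log2 ratio of -2.02 and Cd79b -2.63. Lyn, a kinase of the receptor, had -3.19, and Blnk, an adaptor, -1.65. Bank1, an adaptor, averaged 0.0232 in Jchain-high cells (1 UMI) and 4.03 in Ms4a1-positive cells (39 UMIs). Of 12 B cell transcription factors, 8 stood lower and 2 higher. Ebf1, an early B cell factor, averaged 1.05 in Jchain-high cells and 11.7 in Ms4a1-positive cells (log2 -3.48). Pou2af1, a coactivator of octamer factors, was 1 of the 2 that stood higher (log2 1.44).

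Of 12 naive and homing genes, 8 stood lower in Jchain-high cells and 0 higher, and the median log2 ratio was -4.88. Fcmr, the IgM receptor, averaged 0.0158 in Jchain-high cells (1 UMI) and 6.22 in Ms4a1-positive cells (60 UMIs). Ccr7, which guides B cells into lymphoid tissue, and Ltb, a lymphotoxin chain, had no UMI in Jchain-high cells and averaged 4.17 and 3.44 in Ms4a1-positive cells. Costimulation and activation genes stood lower in 8 of 12, with 1 higher, and Cd86, a costimulatory ligand, had a log2 ratio of -4.65. Of 10 MHC class I genes 5 stood lower with a median log2 ratio of -0.88, but that median was 0.0023 with immunoglobulin left out of the totals, and B2m, their shared chain, had a log2 ratio of 0.03 on the first scale and 0.86 on the second. On that second scale the medians were 3.16 for endoplasmic reticulum genes, 3.75 for plasma cell identity, -1.24 for the B cell receptor list, -0.75 for B cell transcription factors, -4.14 for MHC class II, -4.22 for naive and homing genes and -1.72 for costimulation, each of the same sign as on the first.

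Endoplasmic reticulum and plasma cell genes stood higher in Jchain-high cells within each library as well. In the CIN_high library 108 of 870 genes stood higher in Jchain-high cells (12.4%) and 480 lower (55.2%), and in the CIN_low library 404 of 1872 stood higher (21.6%) and 679 lower (36.3%). The median log2 ratio of endoplasmic reticulum genes was 2.47 in the CIN_high library, from 4 Jchain-high and 21 Ms4a1-positive cells, and 1.99 in the CIN_low library, from 44 Jchain-high and 5 Ms4a1-positive cells. Plasma cell identity gave 3.43 in the CIN_high library against 1.73 in the CIN_low library. The naive and homing list did not hold in both: its median was -3.47 over 7 genes in the CIN_high library against 0.34 over 4 genes in the CIN_low library. In the CIN_low library costimulation genes stood lower for 3 of 6, with 2 higher (median log2 -0.99). B cell transcription factors stood lower there for 4 of 8, with 2 higher (median -0.99). With immunoglobulin left out of the totals these medians were -0.37 and -0.30. MHC class II genes stood lower there for 4 of 4 (median -2.70) and B cell receptor genes for 4 of 7, with 0 higher (median -1.58). Of the epithelial marker list, Epcam averaged 2.44 in Jchain-high cells and 0.617 in Ms4a1-positive cells, and the 12 epithelial markers together took at most 0.319% of the UMIs of a Jchain-high cell and 0.104% of a Ms4a1-positive cell. Macrophage and monocyte genes stood higher in Jchain-high cells for 4 of 6 measured, with 1 lower and a median log2 ratio of 1.74, and neutrophil genes for 3 of 8, with 0 lower. The 13 macrophage markers summed to at most 4.35% of the UMIs of a Jchain-high cell and 1.76% of a Ms4a1-positive cell, with means of 0.156% in Jchain-high cells and 0.283% in Ms4a1-positive cells. The 12 neutrophil markers summed to at most 9.52% in a Jchain-high cell and 8.62% in a Ms4a1-positive cell. The order of these markers differed between the libraries, since in the CIN_high library 4 of 4 neutrophil genes stood lower in Jchain-high cells and in the CIN_low library 3 of 5 stood higher. Without cells over 50 UMIs of S100a8, S100a9 and Lyz2, CIN_high means of S100a8 were 1.14 in Jchain-high and 2.19 in Ms4a1-positive cells. The CIN_low means were 3.28 and 11.4. For S100a9 they were 0 and 1.61 in the CIN_high library and 5.78 and 17.3 in the CIN_low library. Both genes then lay below the Ms4a1-positive mean in Jchain-high cells of each library. The part of these marker lists in the comparison was not tested.

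**Figure D4:**
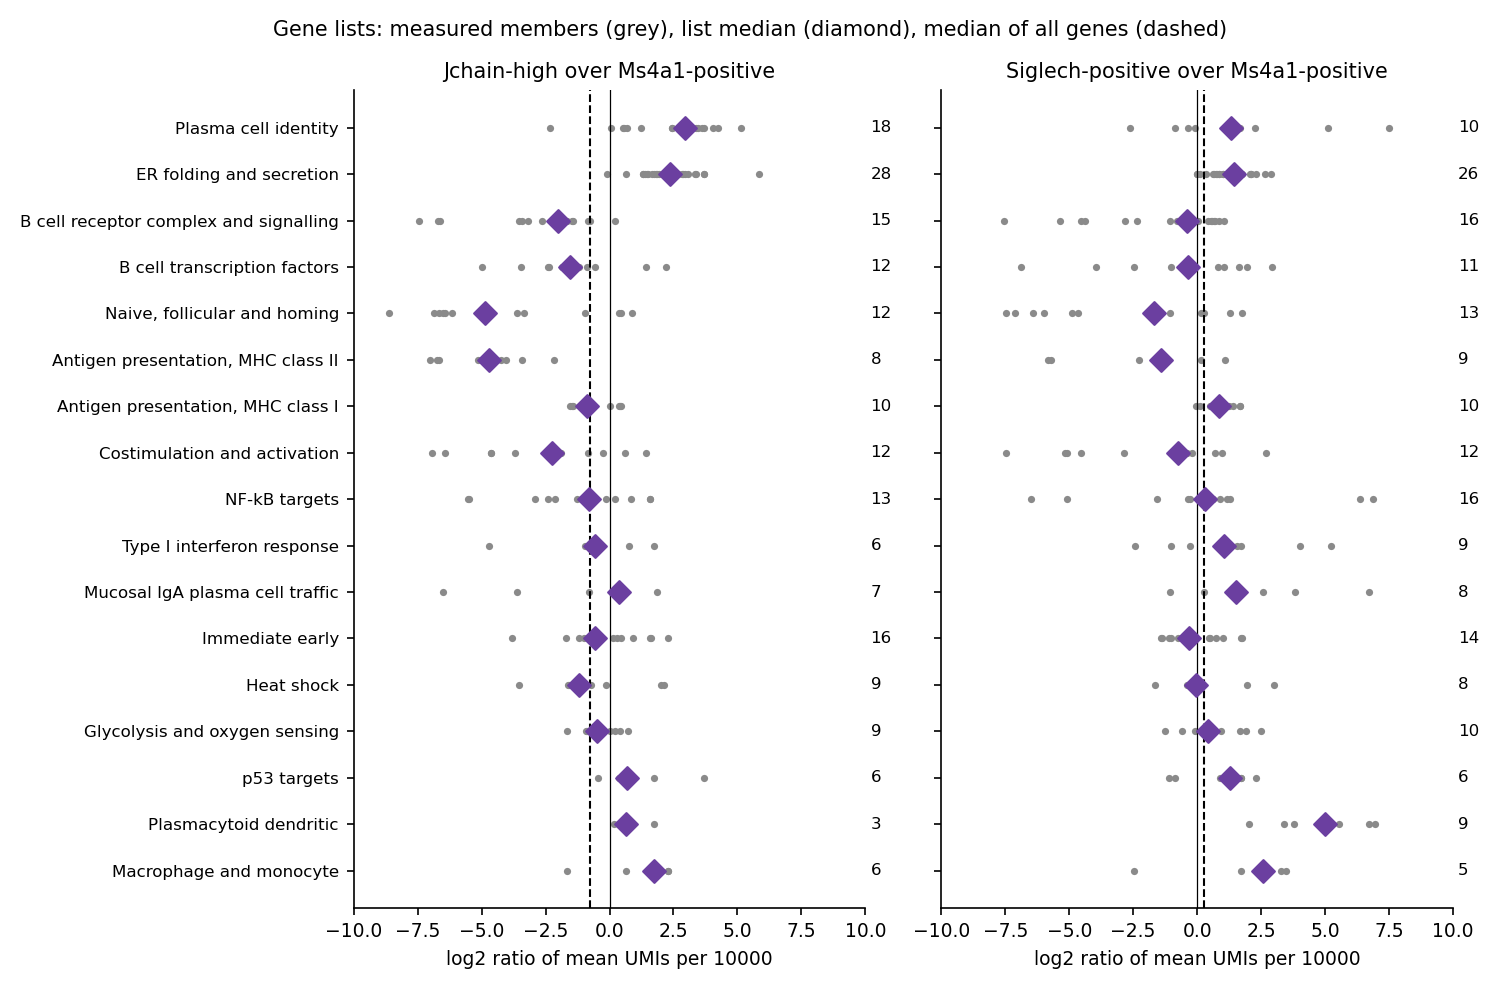
Log2 ratio of mean UMIs per 10000 over Ms4a1-positive cells for the measured members of each gene list (grey points) and their median (diamonds), in Jchain-high cells on the left and Siglech-positive cells on the right, with the number measured beside each row and the median of all genes as a dashed line. Endoplasmic reticulum (ER) and plasma cell genes lie to the higher side in Jchain-high cells, with medians of 2.38 and 2.94, and plasmacytoid dendritic genes in Siglech-positive cells, with a median of 5.00. Members with no UMI in Ms4a1-positive cells could only lie to that side. They number 4 in the plasma cell list and 4 in the plasmacytoid dendritic list, where Siglech, which chose the class, is counted.

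Cycling was seen in Jchain-high cells. Cells with at least 10 UMIs of genes of the G2 and M phases numbered 3, of which 1 was in the CIN_high library, with 140 such UMIs, and 2 in the CIN_low library, with 55 and 14. Mki67, a marker of proliferating cells, had 33, 31 and 7 UMIs in these cells. No B lineage cell of another class passed 2 UMIs of these genes. All 3 led with Igha. Tert had 1 UMI in the B lineage, in a Jchain-high cell of the CIN_low library.

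Siglech-positive cells stood apart from Ms4a1-positive cells by plasmacytoid dendritic markers and by the absence of Cd79a, Pax5 and Ebf1 UMIs. Of 3228 genes measured, 900 stood at least 2-fold higher in Siglech-positive than in Ms4a1-positive cells (27.9%) and 334 stood lower (10.3%), with a median log2 ratio of 0.27. Most Siglech-positive cells came from the CIN_low library and most Ms4a1-positive cells from the CIN_high library. Ratios of these 2 classes given here and below with no library named are pooled, and so mix class with library. Siglech chose the class and is given as description only, at 29.0 UMIs per 10000. Of the 9 measured plasmacytoid dendritic markers, counting Siglech, all 9 stood higher, with a median log2 ratio of 5.00. Of these, 4 had no UMI in Ms4a1-positive cells, Siglech among them by the class rule. Those 4 passed the filter through Siglech-positive cells alone, so they could only come out above equal level, and their ratios use a floor of 3 UMIs. Ccr9, a chemokine receptor that guides cells to the gut, averaged 24.6 in Siglech-positive cells (0 to 84.5, median 20.3) and had no UMI in Ms4a1-positive cells. Bst2, the surface protein tetherin, averaged 31.1 in Siglech-positive cells and 0.832 in Ms4a1-positive cells (log2 5.22). Tcf4, the E protein that specifies plasmacytoid dendritic cells, averaged 18.8 in Siglech-positive cells and 4.61 in Ms4a1-positive cells (log2 2.03). Cox6a2, a cytochrome c oxidase subunit, averaged 10.9 and Smim5, a small membrane protein, averaged 2.49 in Siglech-positive cells, and both had no UMI in Ms4a1-positive cells. Klk1, a kallikrein protease, averaged 10.2 in Siglech-positive cells and 0.319 in Ms4a1-positive cells, the second from 1 UMI. Within the CIN_high library 233 of 1065 genes stood higher in Siglech-positive cells (21.9%) and 163 lower (15.3%), and within the CIN_low library 809 of 2170 stood higher (37.3%) and 228 lower (10.5%). In the CIN_high library alone the list's median was 4.92 over 7 genes, and in the CIN_low library 2.57 over 9. Macrophage and monocyte genes also stood higher in Siglech-positive cells, for 4 of 5 measured, with 1 lower and a median log2 ratio of 2.58. Within the CIN_high library the 1 measured gene of that list stood lower, and within the CIN_low library 3 of 6 stood higher, with a median of 1.14. The summed level of that list averaged 0.173% of the UMIs of a Siglech-positive cell (0% to 2.16%) and 0.283% of a Ms4a1-positive cell (0% to 1.76%), and its part in the comparison was not tested.

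Irf8, a factor of dendritic cells and B cells, averaged 18.3 UMIs per 10000 in Siglech-positive cells (0 to 65.8) and 2.39 in Ms4a1-positive cells (0 to 8.50), a log2 ratio of 2.93. Bcl11a, a factor that both lineages use, averaged 6.38 in Siglech-positive cells and 1.64 in Ms4a1-positive cells (log2 1.96), and Spib, another such factor, had a log2 ratio of 1.04. Ebf1 and Pax5 had no UMI in Siglech-positive cells. Of 11 measured B cell transcription factors 4 stood higher and 4 lower. Of 16 genes of the B cell receptor list 7 stood lower and 1 higher. The one that stood higher was Fcrla, an Fc receptor-like protein of B cells, at 5.47 in Siglech-positive cells and 2.67 in Ms4a1-positive cells. Cd79b averaged 0.337 in Siglech-positive cells and 6.96 in Ms4a1-positive cells (log2 -4.37).

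The chemokine gene Ccl4, at chr11:83662584-83664683, averaged 24.5 in Siglech-positive cells (919 UMIs) and 0.211 in Ms4a1-positive cells (2 UMIs). Ly6c2, a surface antigen with near-identical copies, averaged 13.1 in Siglech-positive cells and 0.0717 in Ms4a1-positive cells, the second from 3 UMIs. P2ry14, a receptor for nucleotide sugars, averaged 5.68 in Siglech-positive cells and 0.0478 in Ms4a1-positive cells, the second from 2 UMIs. Dntt, the template-free polymerase of developing lymphocytes, averaged 3.62 in Siglech-positive cells, was found in 37 of the 54 and had no UMI in Jchain-high or Ms4a1-positive cells. Il7r, an interleukin receptor, averaged 5.26 in Siglech-positive cells and 0.119 in Ms4a1-positive cells (log2 5.46).

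The T and NK cell list gave 3 measured genes, all higher in Siglech-positive cells. Cd8b1 averaged 7.70 in them and was found in 30 of 54, Cd8a averaged 2.25 and Cd4 averaged 0.839, and none had a UMI in Ms4a1-positive cells. These 3 genes thus passed the filter through Siglech-positive cells alone and could only come out above equal level. Cd3e, the T cell receptor chain that defines T cells, had no UMI in any class of the cells annotated Bcell, and averaged 3.33 in T and NK cells. Cd8b1 averaged 0.152 in T and NK cells, below the Siglech-positive level.

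MHC class II stood lower in Siglech-positive cells for 7 of 9 measured genes, with 1 higher and a median log2 ratio of -1.43. That held in the CIN_high library, with 7 of 8 lower and a median of -1.24, and not in the CIN_low library, with 1 of 6 lower, 2 higher and a median of -0.32. H2-Aa averaged 18.4 in Siglech-positive cells and 43.9 in Ms4a1-positive cells (log2 -1.26). In the pooled libraries MHC class I stood higher for 5 of 10, and type I interferon response genes for 6 of 9, with 2 lower. Stat2, a factor of interferon signalling, averaged 1.96 in Siglech-positive cells and 0.119 in Ms4a1-positive cells (log2 4.03). Endoplasmic reticulum genes stood higher for 16 of 26, with 0 lower (median log2 1.44), and Xbp1 averaged 4.50 in Siglech-positive cells and 0.934 in Ms4a1-positive cells (log2 2.27). The naive and homing list stood lower for 9 of 13, and Ccr7 averaged 0.0237 in Siglech-positive cells, from 1 UMI. That list too stood lower only in the CIN_high library, for 6 of 9 with a median log2 ratio of -2.14, against 1 of 7 lower, 1 higher and a median of -0.02 in the CIN_low library. In both libraries endoplasmic reticulum genes stood mostly higher, for 13 of 17 in the CIN_high library and 16 of 24 in the CIN_low library.

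Siglech-positive cells were set against each other between the libraries, with 11 cells in the CIN_high library against 43 in the CIN_low library. Of 2437 genes, 158 stood at least 2-fold higher in the CIN_high library (6.48%) and 334 lower (13.7%), with a median log2 ratio of -0.04. Without the highest cell of each gene on each side, 77 stood higher and 553 lower. Leaving out a highest cell takes more from a mean of 11 cells than from a mean of 43, so this setting by itself shifts ratios lower. The plasmacytoid dendritic markers lay close: Siglech averaged 28.3 in the CIN_high library against 29.2 in the CIN_low library, Bst2 averaged 29.0 in the CIN_high library against 31.6 in the CIN_low library, and Irf8 averaged 19.6 in the CIN_high library against 17.9 in the CIN_low library. Ccr9 averaged 28.9 in the CIN_high library against 23.5 in the CIN_low library. Of 9 such genes, 1 stood higher and 0 lower. The gene that stood higher was Runx2, at 6.45 in the CIN_high library against 2.70 in the CIN_low library.

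Neutrophil genes stood lower in the CIN_high library's Siglech-positive cells for 3 of 4 measured and macrophage genes for 3 of 5, with 0 higher in either list. S100a8, a calprotectin chain, averaged 0.584 in the CIN_high library (3 UMIs) against 10.1 in the CIN_low library (303 UMIs). It was found in 3 of 11 such cells of the CIN_high library and 40 of 43 of the CIN_low library. S100a9 averaged 0.198 in the CIN_high library against 11.9 in the CIN_low library, and Lyz2 averaged 0.25 in the CIN_high library against 6.0 in the CIN_low library. Single cells carried much of the CIN_low means: 1 cell held 246 of the 290 Lyz2 UMIs and another 208 of the 303 S100a8 UMIs. Without these 2 cells, which passed 50 UMIs of the 3 genes together, the CIN_low means were 5.55 for S100a8, 6.41 for S100a9 and 2.54 for Lyz2, each still above its CIN_high mean. T and NK cells showed the same order for S100a8, at 6.49 in the CIN_high library against 15.9 in the CIN_low library, as did myeloid cells, at 156 in the CIN_high library against 282 in the CIN_low library. Igha had the same order in Siglech-positive cells, at 0.156 in the CIN_high library against 1.07 in the CIN_low library, beside 0.0269 (CIN_high) and 0.885 (CIN_low) in T and NK cells. The part of free RNA in these values was not tested.

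NF-kB target genes stood lower for 5 of 13 in the CIN_high library's Siglech-positive cells, with 0 higher and a median log2 ratio of -0.71. Nfkb1, a subunit of the factor, averaged 1.3 in the CIN_high library against 3.94 in the CIN_low library, and Nfkbia, its inhibitor, averaged 0.954 in the CIN_high library against 3.23 in the CIN_low library. Birc3, an inhibitor of cell death, averaged 0.702 in the CIN_high library against 2.65 in the CIN_low library. Cd69, an early activation marker, averaged 2.0 in the CIN_high library against 5.41 in the CIN_low library. Glycolysis genes stood lower for 4 of 10. Slamf9, a surface receptor of the SLAM family, averaged 5.74 in the CIN_high library against 1.25 in the CIN_low library, and Ahr, the aryl hydrocarbon receptor, averaged 2.71 in the CIN_high library against 0.571 in the CIN_low library.

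**Figure D5:**
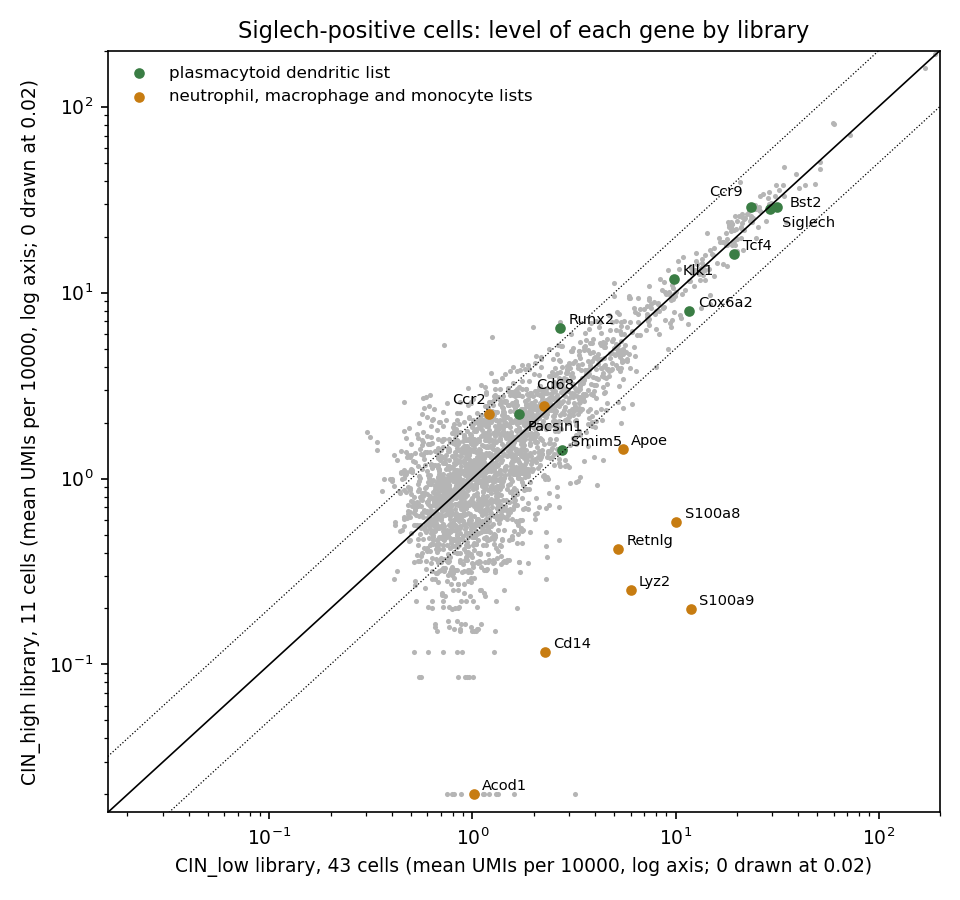
Mean UMIs per 10000 of each measured gene in Siglech-positive cells, with the CIN_high library on the vertical axis and the CIN_low library on the horizontal axis, both logarithmic with 0 drawn at 0.02; points are genes, the solid line marks equal levels and the dotted lines 2-fold differences. Siglech, Ccr9, Bst2 and Tcf4 lie near the line of equal levels, and S100a8, S100a9, Retnlg, Lyz2 and Cd14 lie below it.

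Ms4a1-positive cells numbered 21 in the CIN_high library against 5 in the CIN_low library, so the values of the second rest on few cells. Of 786 genes, 152 stood higher in the CIN_high library (19.3%) and 80 lower (10.2%), with a median log2 ratio of 0.23. Without the highest cell of each gene on each side, 320 stood higher and 52 lower. Leaving out a highest cell takes more from a mean of 5 cells than from a mean of 21, so this setting by itself shifts ratios higher. MHC class II genes stood higher for 4 of 8, with 0 lower. H2-Ab1 averaged 34.2 in the CIN_high library against 11.1 in the CIN_low library (log2 1.62), and H2-Aa averaged 47.3 in the CIN_high library against 29.6 in the CIN_low library (log2 0.68). H2-Ob averaged 4.46 in the CIN_high library against 0.169 in the CIN_low library, the second from 1 UMI. Its log2 ratio was 4.72, and 2.21 without the highest cell of each side. That setting left no H2-Ob UMI on the CIN_low side, so 2.21 is a ratio to the floor used for levels without a UMI. The lower value thus does not show that the difference rested on a high cell. Costimulation and activation genes stood higher for 6 of 10, with 1 lower, and NF-kB targets for 5 of 8, with 1 lower. Rel, an NF-kB subunit, had a log2 ratio of 1.14. Ebf1 averaged 13.0 in the CIN_high library against 5.99 in the CIN_low library.

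Of the genes outside the lists, Vim, S100a6, Neat1 and Ahnak stood lower in the CIN_high library's Ms4a1-positive cells. Vim, the intermediate filament vimentin, averaged 1.08 in the CIN_high library against 12.6 in the CIN_low library (log2 -3.54). S100a6 averaged 4.25 in the CIN_high library against 27.1 in the CIN_low library (log2 -2.68). Neat1, a nuclear long noncoding RNA, averaged 2.54 in the CIN_high library against 16.8 in the CIN_low library. Ahnak, a large scaffold protein, averaged 0.0296 in the CIN_high library (1 UMI) against 10.4 in the CIN_low library (37 UMIs). Apoe, a lipid carrier that macrophages make, averaged 31.4 in the CIN_high library against 2.98 in the CIN_low library.

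Jchain-high cells gave 4 cells in the CIN_high library, 2 of them marked as doublets, so few values are given. Of 2035 genes, 254 stood higher in the CIN_high library (12.5%) and 508 lower (25.0%), with a median log2 ratio of -0.21. That excess of lower genes did not hold in every setting. Without the marked doublets 373 stood higher and 347 lower, with a median of 0.10, and from summed UMIs 298 stood higher and 297 lower. With no filter beyond 1 UMI on each side 1569 stood higher and 955 lower. The excess stayed with immunoglobulin left out of the totals (245 higher, 512 lower) and with a filter of 60 UMIs and 20% of cells (46 and 107). It also stayed without cells over 50 UMIs of S100a8, S100a9 and Lyz2 (258 and 428). Igha averaged 1207 UMIs per 10000 in the CIN_high library against 999 in the CIN_low library, a log2 ratio of 0.27. Without the marked doublets that ratio was -0.43. Xbp1 averaged 12.4 in the CIN_high library against 10.1 in the CIN_low library, a log2 ratio of 0.29 that was -0.33 without the highest cell of each side. Leaving out a highest cell takes more from a mean of 4 cells than from a mean of 44. Hsp90b1 averaged 55.4 in the CIN_high library against 51.7 in the CIN_low library. Mzb1 averaged 29.3 in the CIN_high library against 20.9 in the CIN_low library. S100a8, the myeloid gene, averaged 1.14 in Jchain-high cells of the CIN_high library (2 UMIs) against 12.9 in those of the CIN_low library. The CIN_low mean was 3.28 without the 3 cells that passed 50 UMIs of S100a8, S100a9 and Lyz2 together.

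Against T and NK cells, 647 of 6044 genes stood higher in B lineage cells (10.7%) and 1371 lower (22.7%), with a median log2 ratio of -0.33. The annotation is a call on the same cells, and the B lineage mixes 3 classes, so these counts are a description and no finding is read from them.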

How the data were processed

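Single cells were profiled with the 10x Genomics assay in 1 library of each label group, and the submitters' processing notes name Cell Ranger 2.1.1, Seurat and the mm10 build. The sources used here give no annotation release, no filters on cells or genes and nothing on how free RNA and doublets were handled. A single matrix was deposited by the authors, of 21041 genes by 14097 cells, on the natural log scale, ln(1 + UMIs per 10000), as the values themselves show. Dividing by the smallest value of a cell returned whole UMI counts for 100% of the non-zero values within a tolerance of 0.01. The authors also deposited a cell type and a CIN class per cell.

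From these, the B lineage was split by Jchain, Siglech and Ms4a1, and mean UMIs per 10000 were compared between classes with no test, since each CIN class is 1 library. B lineage totals ran from 869 to 35667 UMIs per cell, with sums of 224804 for CIN_high and 828996 for CIN_low. Genes needed 20 UMIs in all and a UMI in 10% of the cells of 1 side. Levels against 0 UMIs used a floor of 3 UMIs over the group. Shares carry exact Clopper-Pearson intervals. Genes are named where they belong to 1 of 33 lists or are among the 12 with the largest log2 ratio each way that reach 1 UMI per 10000, leaving out predicted, receptor segment, hemoglobin, mitochondrial, ribosomal and sex-linked genes. The members, lists and tests were chosen with earlier results of these data known, and the Siglech class and the motifs after seeing the data. No count test was run, although whole UMIs were recovered. The comparison was tested on simulated cells with known fold changes, drawn from 1 profile of all B lineage cells. Both simulated sides had depths drawn alike, immunoglobulin genes were left unchanged and cells varied by counting error only. The simulation thus does not cover the differences of depth and immunoglobulin between the classes. Doublets were marked per library with Scrublet through Scanpy 1.11.5 at an expected rate of 6%, which marked 142 cells (2.29%) and 249 (3.15%), and were left in. Gene positions came from GENCODE on mm10 and promoters from RefSeq on GRCm38.p6; the Ms4a1 promoter was not used here. Scripts ran on SciPy 1.17.1, pandas 2.3.3 and numpy 2.4.6 under Python 3.11.15.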

Additional observations from a re-analysis of the deposited data

How the results depend on the processing

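A share counts as unmoved within the exact interval of the share reported, a count of genes within 1.5 times, a gene's ratio within its counting interval or 0.1 on the log2 scale, and a list's median within its order interval or 0.1. For few cells these intervals are wide. Of 174 values that answer a comparison and were recomputed under another setting, 125 were unmoved and 49 moved; of 1373 values of single genes and lists, 1168 were unmoved, 202 moved and 3 reversed. Values unmoved by that measure include the Jchain-high share of the CIN_high library, at 5.41% without marked doublets against 10.0%. Leaving out the highest cell of each side moved 25 of 99 gene ratios by over 1.5 times. These include Bank1, Fcmr, H2-Ob and Ahnak, whose lower side held 1 UMI and fell to 0. The floor of 3 UMIs then took its place, so the count is not only of ratios that rest on a high cell. The reversals were the costimulation median of Jchain-high over Ms4a1-positive cells, at 0.59 with a filter of 60 UMIs and 20% of cells, the p53 target median of Siglech-positive over Ms4a1-positive cells, at -1.11 with that filter, and Iglc3 in Jchain-high over Ms4a1-positive cells, at -0.33 within the CIN_high library. Fewer genes or cells enter each.

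Over immune cells, B lineage cells were 1.25% for CIN_high, against 1.59% for CIN_low. Without cells that had more markers of another type the shares were 0.582% for CIN_high against 0.724% for CIN_low, 1.24 times as much, and without Siglech-positive cells 0.469% against 0.632%, 1.35 times as much, where all cells gave 1.82 times. Without Siglech-positive cells, Ms4a1-positive cells were 72.4% of the rest in the CIN_high library and Jchain-high cells 88.0% in the CIN_low library. The Ms4a1-positive share of the CIN_high library was 35.0% at 2 Ms4a1 UMIs. At 20 UMIs, 100% of the called Ms4a1-positive cells led with Ighm, against 90.9% at 5.

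Counts of genes at least 2-fold apart followed the filter. Higher and lower counts in Jchain-high over Ms4a1-positive cells were 736 and 667 with immunoglobulin left out of the totals, 175 and 331 with the stricter filter, when 8 list medians were at least 2-fold from equal, against 13, and 885 and 4066 with none. They were 108 and 480 within the CIN_high library, and 679 stood lower within the CIN_low library. Siglech-positive over Ms4a1-positive cells gave 294 and 57 with the stricter filter, 1985 and 1758 with none, and 233 and 163 within the CIN_high library. CIN_high over CIN_low in Siglech-positive cells gave 20 and 42, then 1478 and 974, and 77 and 553 without the highest cell of each side. CIN_high over CIN_low in Ms4a1-positive cells gave 19 and 13, then 1097 and 1280, 320 and 52 without the highest cells, and 37 lower from summed UMIs. CIN_high over CIN_low in Jchain-high cells gave 46 and 107, then 1569 and 955, 61 and 628 without the highest cells, 298 and 297 from summed UMIs, and 373 and 347 without marked doublets. B lineage over T and NK cells gave 343 and 795, then 1913 and 3044. The log2 ratio of Igha in Jchain-high cells, CIN_high over CIN_low, was 0.27, and it was -0.43 without the marked doublets and 0.40 at a Jchain level of 30, and 0.04 from summed UMIs. Leaving out the highest cells takes more from the mean of the smaller group, so between the libraries that setting shifts the counts against the library with fewer cells. The cause of the other shifts was not tested.

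No paired analysis was possible because each CIN class is 1 library and no result comes from a test. The 4 Jchain-high cells of the CIN_high library and the 5 Ms4a1-positive cells of the CIN_low library limit each comparison that uses them, and depth limits genes with few UMIs.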
